A study of Homo sapiens with 12 samples.

Results

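Expression was examined for 10 genes of the extracellular matrix and of its assembly, taken by gene name from the 38611 genes of each table. They are the glycoproteins FN1, TNC, THBS1, SPARC and FBN1, the proteoglycans HSPG2 and CSPG4, the crosslinking enzymes LOX and LOXL2, and the calcium-binding protein gene S100A4. All 10 were found in all 12 libraries, and all 10 passed the filter on low counts that left 24128 genes for testing. RNA had been sequenced from DU145 and PC3, human prostate carcinoma cell lines established from metastases, in 4 groups of 3 libraries. DU145-R and PC3-R are docetaxel-resistant sublines, and the DU145 and PC3 parental groups, labelled control, are the lines they were derived from. Docetaxel, a taxane that stabilises microtubules, was increased in steps that began at 10 nm/ml for DU145-R and 0.5 nm/ml for PC3-R. Selection ended when the half-maximal inhibitory concentration had reached 1800 nm/ml in DU145-R and 15 nm/ml in PC3-R, in the unit as the submitters wrote it. No genetic change, clone or drug exposure at harvest is stated for any group, and each line gave 1 resistant subline.

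The extracellular matrix is a network of secreted proteins that holds cells, binds growth factors and is read by cells through integrins and other receptors. Fibronectin and fibrillin form fibrils, proteoglycans carry sulfated sugar chains that retain water and growth factors, and lysyl oxidases crosslink collagen and elastin. Tenascin-C, thrombospondin-1 and SPARC are matricellular proteins, which modulate attachment more than they build structure. In carcinomas much of the matrix is laid down by stromal fibroblasts, but the tumour cells also express part of it, and in a pure culture the RNA comes from the tumour cells themselves.

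Library totals lay between 62513103 and 72530254 counts. Levels are given as CPM, counts scaled to a library size of 1e6 with TMM factors, within a gene, and as the deposited FPKM, which also divides by gene length, where genes are compared with each other. The first PC3-R library stood apart within PC3-R, at chi-square values per gene of 37.12 and 37.16 to the other libraries, which were at 17.86 to each other. Without it, the change of each of the 10 genes in PC3-R moved by at most 0.09 on the log2 scale and all 10 still passed the test. CTNNA1, a catenin gene known to be lost in PC3, averaged 2.23 CPM in PC3-R and 2.91 CPM in PC3 parental cells, against 383 CPM in DU145-R and 519 CPM in DU145 parental cells, which goes with the line labels. Separate cultures are not stated for the 3 libraries of a group, and the spread on which p-values rest may therefore be technical.

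Promoter sequences are shown for 6 of the genes because their transcripts carry the main patterns of the data. FN1, HSPG2 and LOX fell in both resistant lines, TNC rose in both, and THBS1 and S100A4 moved in opposite directions. Each line gives the 250 bases before the RefSeq transcription start on build GRCh38.p14, 5′ to 3′ on the gene's own strand, with the motif matches described next in capitals.
FN1 (chr2:215436069-215436318, minus strand): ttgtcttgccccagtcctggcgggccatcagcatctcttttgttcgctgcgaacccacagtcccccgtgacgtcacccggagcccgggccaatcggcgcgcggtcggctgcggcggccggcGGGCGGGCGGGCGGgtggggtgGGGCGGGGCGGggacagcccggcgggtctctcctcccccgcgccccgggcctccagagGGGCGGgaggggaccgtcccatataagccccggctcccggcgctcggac
HSPG2 (chr1:21937311-21937560, minus strand): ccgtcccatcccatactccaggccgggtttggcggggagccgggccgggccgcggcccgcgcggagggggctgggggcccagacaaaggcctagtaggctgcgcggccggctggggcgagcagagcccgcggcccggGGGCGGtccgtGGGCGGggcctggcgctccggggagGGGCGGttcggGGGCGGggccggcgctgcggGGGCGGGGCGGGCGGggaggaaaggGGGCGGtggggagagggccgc
LOX (chr5:122078260-122078509, minus strand): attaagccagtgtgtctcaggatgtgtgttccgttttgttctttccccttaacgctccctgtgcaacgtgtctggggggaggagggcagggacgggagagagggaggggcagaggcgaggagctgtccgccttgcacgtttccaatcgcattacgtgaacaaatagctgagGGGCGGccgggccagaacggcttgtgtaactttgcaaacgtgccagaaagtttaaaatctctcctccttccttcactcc
TNC (chr9:115118158-115118407, minus strand): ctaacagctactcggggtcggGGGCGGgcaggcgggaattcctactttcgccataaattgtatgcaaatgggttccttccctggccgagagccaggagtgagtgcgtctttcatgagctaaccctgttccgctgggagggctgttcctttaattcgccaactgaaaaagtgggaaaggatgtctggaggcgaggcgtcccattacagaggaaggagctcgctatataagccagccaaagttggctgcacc
THBS1 (chr15:39580829-39581078, plus strand): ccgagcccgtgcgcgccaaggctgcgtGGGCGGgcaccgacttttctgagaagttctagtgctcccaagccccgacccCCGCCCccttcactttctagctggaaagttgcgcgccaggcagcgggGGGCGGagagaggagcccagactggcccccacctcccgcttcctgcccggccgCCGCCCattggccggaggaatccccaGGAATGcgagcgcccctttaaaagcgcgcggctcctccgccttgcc
S100A4 (chr1:153545807-153546056, minus strand): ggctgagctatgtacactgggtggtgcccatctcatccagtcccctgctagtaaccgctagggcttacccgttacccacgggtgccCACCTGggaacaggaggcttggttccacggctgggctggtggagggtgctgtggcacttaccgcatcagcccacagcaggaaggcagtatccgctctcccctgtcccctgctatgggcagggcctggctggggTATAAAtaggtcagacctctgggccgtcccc

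RefSeq promoters were matched for 9 of the 10 genes, and LOXL2 had none in the table used. Capitals mark matches on either strand to 5 short motifs, with overlapping matches counted separately. The motifs were GGGCGG, the core bound by SP1, TGACTCA for AP-1, GGAATG for TEAD factors, CACCTG for the E-box bound by SNAIL and ZEB repressors, and TATAAA for the TATA box. HSPG2 held 8 SP1 matches and FN1 held 6, while LOX and TNC held 1 each and THBS1 held 4. Among 35116 RefSeq promoters of the same length, 42.6% held at least 1 SP1 match. Matches per promoter were not counted there, so the counts of 8, 6 and 4 have no background. THBS1 also held 1 TEAD match, found in 11.9% of all promoters. S100A4 held 1 E-box (17.5% of all promoters) and 1 TATA box whose first base lay 31 bases before the start (10.7% of all promoters). The AP-1 motif, present in 4.20% of promoters, was in none of the 9. Of the 3 promoters not printed, FBN1 and SPARC held 1 TEAD match each and CSPG4 held 1 E-box and 1 SP1 match. Base composition differed as well: G and C made up 82.8% of the HSPG2 stretch, 76.4% of FN1, 69.6% of THBS1, 62.8% of S100A4, 55.2% of LOX and 54.8% of TNC. The S100A4 start used by RefSeq lies 4330 bases inside the gene as the deposited tables bound it. A match says only that these letters occur in the stretch.

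The first question was what docetaxel resistance changed in each line. In DU145-R, 8 of the 10 genes were lower than in DU145 parental cells and 2 were higher, where 39.6% of all genes tested passed the same threshold (adjusted p under 0.05, 18.9% higher and 20.7% lower). In PC3-R, 5 were lower and 5 were higher than in PC3 parental cells, where 44.0% of all genes passed (22.4% higher and 21.6% lower). With only genes of at least 5 CPM in 3 libraries in the fit, 64.2% passed in DU145-R and 69.3% in PC3-R. All 10 passed in both lines there. The 3 resistant and 3 parental libraries did not overlap for any of the 10 genes in either line, as for 51.2% of all genes in DU145 and 54.4% in PC3. FN1, SPARC, HSPG2, CSPG4 and LOX were lower in both resistant lines, a pattern found in 6.90% of all genes tested. TNC and LOXL2 were higher in both (6.54% of genes), and THBS1, FBN1 and S100A4 fell in DU145-R and rose in PC3-R (12.1% of genes moved in opposite directions). The median log2 change of the 10 genes was -1.82 in DU145-R and -0.34 in PC3-R, beside 0.00 over all genes in each line. The 10 genes were chosen with results of these data known, so these shares are descriptions and carry no test.

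**Figure D1:**
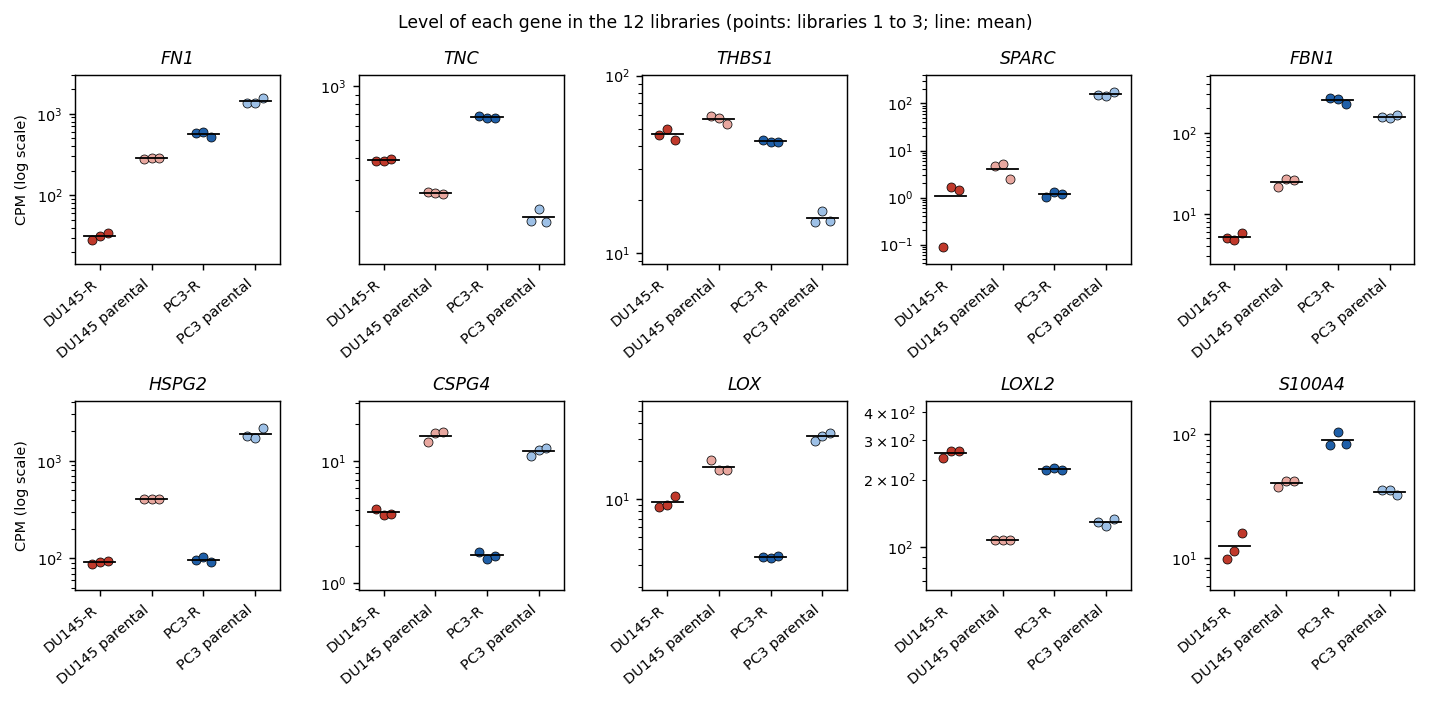
Level of each of the 10 genes in CPM on a log axis, by group (DU145-R, DU145 parental, PC3-R, PC3 parental), with 1 point per library and a line at the mean of 3. HSPG2 lies between 88.4 and 103 CPM in both resistant lines and far above it in both parental lines, and the low SPARC point in DU145-R is the library with 6 counts.

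FN1, ENSG00000115414 at chr2:215360440-215436073 (GRCh38, minus strand), encodes fibronectin, the fibril-forming ligand of several integrins. It had 27.9, 31.1 and 34.8 CPM in the DU145-R libraries, against 280.2, 289 and 285 CPM in DU145 parental libraries. It had 579, 589 and 519 CPM in PC3-R, against 1365, 1344 and 1550.2 CPM in PC3 parental cells. Every resistant library was below every parental library of its line, and even the lowest PC3-R library was above all 6 DU145 libraries. The log2 change was -3.19 ± 0.08 (SE) in DU145-R, a 9.12-fold lower level (edgeR quasi-likelihood test, Benjamini-Hochberg adjusted p = 4.14e-12), and -1.34 ± 0.08 in PC3-R, 2.52-fold lower (edgeR, adjusted p = 6.52e-09). By deposited FPKM, FN1 ranked 11011 among all genes in DU145-R and 2778 in DU145 parental cells, and 1380 in PC3-R and 373 in PC3 parental cells. No other gene of the tables overlaps it. In bulk RNA, fewer cells expressing a gene and less RNA per cell cannot be told apart, here and for the genes that follow.

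SPARC, ENSG00000113140 at chr5:151661096-151686975 (minus strand), encodes osteonectin, a collagen-binding matricellular protein. In PC3-R it had 1.05, 1.34 and 1.18 CPM, against 154, 148 and 176 CPM in PC3 parental cells. This was the largest change among the 10 genes, with a log2 change of -7.07 ± 0.56, or 134-fold lower (edgeR, adjusted p = 6.58e-06). In DU145 the gene was already low: 0.0904, 1.68 and 1.44 CPM in DU145-R (6, 109 and 95 counts), against 4.59, 5.20 and 2.51 CPM in DU145 parental cells (318, 346 and 163 counts). The first DU145-R library was far below the other two, though no resistant library reached a parental one. The log2 change of -1.94 ± 0.56 (edgeR, adjusted p = 0.0229) became -1.39 (adjusted p = 0.00267) without that library, and it did not pass without the first DU145 parental library (-1.85, adjusted p = 0.0664) or the second (-1.73, adjusted p = 0.0771). With only the 6 DU145 libraries in the fit it was -1.92, and it did not pass (adjusted p = 0.154). The noncoding gene CLMAT3, on the opposite strand, had at most 64 counts in a library.

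TNC, ENSG00000041982 at chr9:115019575-115118257 (minus strand), encodes tenascin-C, a large glycoprotein that counteracts adhesion to fibronectin. It rose in both resistant lines. The libraries had 381, 385 and 393 CPM in DU145-R, against 257, 254 and 249.8 CPM in DU145 parental cells, and 681, 669 and 665 CPM in PC3-R, against 178, 207 and 174 CPM in PC3 parental cells. PC3-R, whose parental line had the lowest level of the 4 groups, had the highest, and no groups overlapped. Its log2 change was 0.61 ± 0.05 in DU145-R, 1.52-fold (edgeR, adjusted p = 1.27e-07), and 1.85 ± 0.05 in PC3-R, 3.61-fold (edgeR, adjusted p = 4.96e-13). The long noncoding gene DELEC1 spans TNC on the opposite strand and had 27 counts or fewer in every library.

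THBS1, ENSG00000137801 at chr15:39581079-39599466 (plus strand), encodes thrombospondin-1, which binds CD47 and CD36, activates latent TGF-beta and inhibits angiogenesis. Its libraries had 46.6, 50.3 and 43.7 CPM in DU145-R, against 59.2, 58.1 and 53.4 CPM in DU145 parental cells. In PC3-R they had 43.7, 42.3 and 42.2 CPM, against 14.9, 17.3 and 15.1 CPM in PC3 parental cells. The DU145 groups were close without overlapping, whereas each PC3-R library was above each PC3 parental one by a wide margin. THBS1 fell by 0.28 ± 0.08 on the log2 scale in DU145-R, 1.21-fold lower (edgeR, adjusted p = 0.00709), and its log2 change in PC3-R was 1.44 ± 0.08, 2.71-fold higher (edgeR, adjusted p = 4.7e-10). FSIP1, which overlaps THBS1 on the opposite strand with at most 161 counts in a library, did not pass in either line (log2 change -0.64 in DU145-R and 1.14 in PC3-R, adjusted p = 0.357 and 0.0799 by edgeR).

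FBN1, ENSG00000166147 at chr15:48408313-48645721 (minus strand), encodes fibrillin-1, the backbone of microfibrils, which also store latent TGF-beta. It had 5.02, 4.73 and 5.88 CPM in DU145-R, against 21.7, 27.3 and 26.3 CPM in DU145 parental cells. It had 267, 259 and 225 CPM in PC3-R, against 156, 154 and 164 CPM in PC3 parental cells. The gene fell in the line where it was low and rose in the line where it was high, so the spread between lines widened. FBN1 had a log2 change of -2.27 ± 0.10 in DU145-R, 4.81-fold lower (edgeR, adjusted p = 2.67e-10), and 0.66 ± 0.09 in PC3-R, 1.58-fold higher (edgeR, adjusted p = 1.58e-05). The noncoding genes that overlap it had 16 counts or fewer.

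HSPG2, ENSG00000142798 at chr1:21822244-21937310 (minus strand), encodes perlecan, the large heparan sulfate proteoglycan of basement membranes. It had 88.4, 92.7 and 93.5 CPM in DU145-R, against 409.9, 401 and 404 CPM in DU145 parental cells. It had 96.1, 103 and 92.4 CPM in PC3-R, against 1797, 1712 and 2185 CPM in PC3 parental cells. The resistant lines overlapped each other, while the parental lines differed widely. On the log2 scale HSPG2 changed by -2.15 ± 0.08 in DU145-R, 4.42-fold lower (edgeR, adjusted p = 7.37e-11), and -4.29 ± 0.08 in PC3-R, 19.5-fold lower (edgeR, adjusted p = 2.49e-13). LDLRAD2 overlaps 2982 of the 115067 bases of HSPG2 on the opposite strand. It had 103 to 137 counts in DU145-R, against 12 to 42 in DU145 parental cells, and 11 to 39 in PC3-R, against 109 to 263 in PC3 parental cells, so it moved against HSPG2 in DU145 and with it in PC3 (edgeR, adjusted p = 0.00244 and 0.000385).

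CSPG4, ENSG00000173546 at chr15:75674322-75712848 (minus strand), encodes NG2, a transmembrane chondroitin sulfate proteoglycan known from pericytes, glial progenitors and melanoma. It was low in all groups: 4.08, 3.64 and 3.68 CPM in DU145-R, against 14.2, 17.0 and 17.3 CPM in DU145 parental cells, and 1.81, 1.58 and 1.68 CPM in PC3-R, against 11, 12.4 and 12.9 CPM in PC3 parental cells. Every resistant library of either line was below every parental library of both. The log2 change was -2.09 ± 0.15 in DU145-R, 4.25-fold lower (edgeR, adjusted p = 1.93e-08), and -2.84 ± 0.16 in PC3-R, 7.14-fold lower (edgeR, adjusted p = 6.97e-10). The noncoding gene AC105020, on the opposite strand, did not pass in either line (log2 change -0.39 in DU145-R and -0.18 in PC3-R, adjusted p = 0.539 and 0.79 by edgeR).

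LOX and LOXL2, both of the lysyl oxidase family, moved in opposite directions in each line. LOX, ENSG00000113083 at chr5:122063195-122078259 (minus strand), encodes the founding enzyme, which oxidises lysines of collagen and elastin. It had 8.69, 8.98 and 10.5 CPM in DU145-R, against 20.4, 17.2 and 16.9 CPM in DU145 parental cells. It had 3.46, 3.38 and 3.54 CPM in PC3-R, against 28.9, 31.8 and 33.6 CPM in PC3 parental cells. PC3-R, derived from the line with the most LOX, had the least. LOX had a log2 change of -0.95 ± 0.11 in DU145-R, 1.93-fold lower (edgeR, adjusted p = 5.17e-06), and -3.18 ± 0.12 in PC3-R, 9.09-fold lower (edgeR, adjusted p = 1.25e-11). SRFBP1, on the opposite strand, covers 12376 of the 15065 bases of LOX. It had 729 to 866 counts in DU145-R (LOX 577 to 693) and 574 to 901 in DU145 parental cells (LOX 1098 to 1411). In PC3-R it had 883 to 964 (LOX 212 to 249), and in PC3 parental cells 580 to 690 (LOX 1958 to 2156). The log2 change of SRFBP1 was 0.18 in DU145-R (edgeR, adjusted p = 0.384) and 0.51 in PC3-R (edgeR, adjusted p = 0.00865), the direction opposite to that of LOX.

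LOXL2, ENSG00000134013 at chr8:23296897-23425291 (minus strand), encodes a lysyl oxidase-like enzyme that crosslinks basement membrane collagen. It rose in both resistant lines. Its libraries had 251, 268 and 269 CPM in DU145-R, against 107, 107 and 107 CPM in DU145 parental cells, and 221, 225 and 221 CPM in PC3-R, against 129.6, 124 and 133 CPM in PC3 parental cells. Both resistant groups were above all parental libraries of either line. Its log2 change was 1.29 ± 0.04 in DU145-R, 2.45-fold (edgeR, adjusted p = 1.19e-12), and 0.78 ± 0.04 in PC3-R, 1.72-fold (edgeR, adjusted p = 2.45e-10). ENTPD4 overlaps 39509 of the 128395 bases of LOXL2 on the same strand. Over the 12 libraries ENTPD4 had 5126 to 7006 counts and LOXL2 had 6954 to 17764. The log2 change of ENTPD4 was 0.17 in DU145-R (edgeR, adjusted p = 0.0419) and 0.15 in PC3-R (edgeR, adjusted p = 0.0584). AC090197, on the opposite strand, had at most 204 counts in a library, with log2 changes of -1.35 in DU145-R and 1.02 in PC3-R (edgeR, adjusted p = 0.0128 and 0.0477).

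S100A4, ENSG00000196154 at chr1:153543613-153550136 (minus strand), encodes metastasin, a small calcium-binding protein found in the cytoplasm and also secreted, and known as a marker of fibroblasts and of motile carcinoma cells. It had 9.91, 11.5 and 16 CPM in DU145-R, against 37.5, 42.2 and 42.0 CPM in DU145 parental cells. It had 81.6, 104 and 83.0 CPM in PC3-R, against 35.3, 35.6 and 32.3 CPM in PC3 parental cells. The parental lines lay close together, DU145-R fell below both and PC3-R rose above both. The log2 change was -1.70 ± 0.15 in DU145-R, 3.25-fold lower (edgeR, adjusted p = 6.91e-07), and 1.38 ± 0.14 in PC3-R, 2.60-fold higher (edgeR, adjusted p = 2.9e-06). S100A3, its neighbour on the same strand, shares 1930 bases with it. S100A3 averaged 22.9 CPM in PC3-R and 7.71 CPM in PC3 parental cells (log2 change 1.57 ± 0.16, edgeR, adjusted p = 4.5e-07), and its log2 change in DU145-R was -0.34 (edgeR, adjusted p = 0.0978). With the counts of both genes summed, the log2 ratio of mean CPM was -1.37 in DU145-R and 1.42 in PC3-R.

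**Figure D2:**
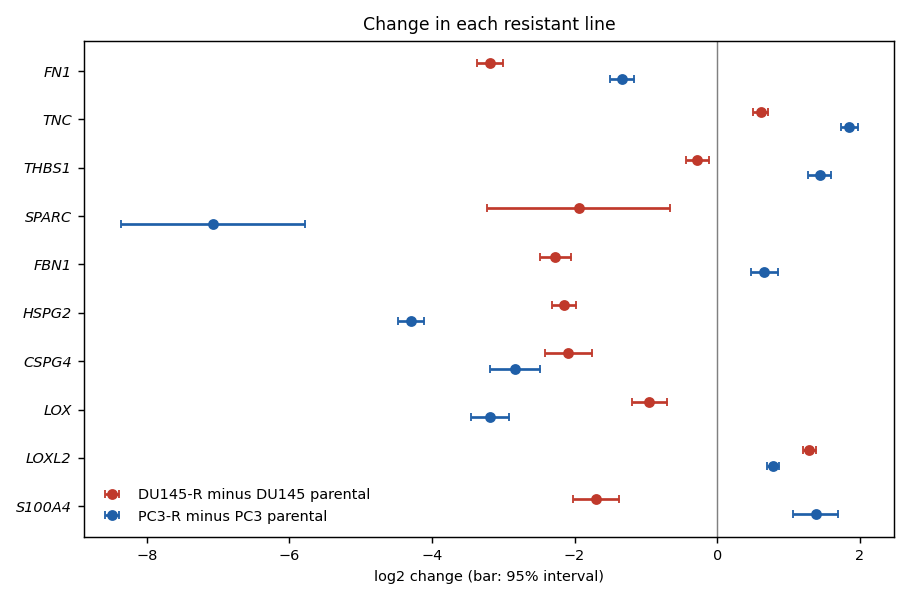
Log2 change of each gene in DU145-R against DU145 parental cells (red) and in PC3-R against PC3 parental cells (blue), with 95% intervals from the fit on all genes. FN1, SPARC, HSPG2, CSPG4 and LOX lie left of 0 in both lines, TNC and LOXL2 right of 0 in both, and THBS1, FBN1 and S100A4 on opposite sides.

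The change differed between the lines for all 10 genes by a direct test of PC3 resistance change minus DU145 resistance change, which 42.1% of all genes passed (22.1% positive and 20.0% negative). With only genes of at least 5 CPM in 3 libraries in the fit, 66.9% passed, among them all 10. The difference was positive for 5 genes and negative for 5, with a median of 0.37 on the log2 scale beside 0.02 over all genes. It was 3.08 ± 0.21 for S100A4 (edgeR, adjusted p = 4.5e-08) and 2.93 ± 0.13 for FBN1 (edgeR, adjusted p = 2.9e-10), which changed direction between the lines. Among genes that moved the same way in both lines, FN1 fell further in DU145-R, by 1.85 ± 0.11 (edgeR, adjusted p = 1.06e-08), while SPARC, LOX and HSPG2 fell further in PC3-R. TNC rose further in PC3-R (1.24 ± 0.07, edgeR, adjusted p = 1.69e-09) and LOXL2 further in DU145-R (-0.51 ± 0.06, edgeR, adjusted p = 1.83e-06). The difference for CSPG4, -0.75 ± 0.21 (edgeR, adjusted p = 0.00928), depended on the scale: limma on log2(FPKM + 1) gave 0.01 (adjusted p = 0.97).

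The lines were also compared with each other. In PC3 parental cells 6 of the 10 genes were higher and 3 lower than in DU145 parental cells, where 60.3% of all genes passed (30.9% higher and 29.5% lower). With only genes of at least 5 CPM in 3 libraries in the fit, 82.5% passed, among them 9 of the 10. The libraries of the parental lines did not overlap for any of the 10 genes, as for 67.7% of all genes. SPARC was 38.8-fold higher (log2 difference 5.28 ± 0.50, edgeR, adjusted p = 1.29e-05), FBN1 6.30-fold (2.66 ± 0.09), FN1 4.99-fold (2.32 ± 0.08) and HSPG2 4.69-fold (2.23 ± 0.08), with adjusted p of 3.87e-12, 1.08e-11 and 9.64e-12. THBS1 was 3.61-fold lower in PC3 parental cells (-1.85 ± 0.08, edgeR, adjusted p = 7.07e-12). LOX was higher by 0.79 ± 0.11 and LOXL2 by 0.27 ± 0.04, while TNC was lower, at -0.45 ± 0.05. CSPG4, at -0.42 ± 0.15 (edgeR, adjusted p = 0.0201), did not pass without the first PC3 parental library (-0.36, adjusted p = 0.088) or without DU145 parental library 2 or 3 (-0.41 and -0.39, adjusted p = 0.06 and 0.0656). S100A4 did not pass, with a log2 difference of -0.24 and a 95% interval of -0.55 to 0.07 (edgeR, adjusted p = 0.168), but passed without DU145-R library 3 (-0.26, adjusted p = 0.0261).

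Between the resistant lines 4 genes were higher and 3 lower in PC3-R than in DU145-R, where 59.8% of all genes passed (30.6% higher and 29.1% lower), in a comparison added after the data had been seen. With only genes of at least 5 CPM in 3 libraries in the fit, 81.5% passed, among them 8 of the 10. The libraries did not overlap for 8 of the 10 genes, as for 66.5% of all genes. Among the 8, THBS1 was barely apart, at 43.6757 CPM in the lowest DU145-R library and 43.6726 CPM in the highest PC3-R library. FBN1 was 48.0-fold higher in PC3-R (5.59 ± 0.11, edgeR, adjusted p = 1.08e-14), FN1 18.0-fold (4.17 ± 0.09) and S100A4 7.18-fold (2.84 ± 0.15). TNC was higher by 0.80 ± 0.05, and CSPG4, LOX and LOXL2 were lower, at -1.17 ± 0.15, -1.44 ± 0.12 and -0.24 ± 0.04. HSPG2, SPARC and THBS1 did not pass, although each had differed between the parental lines. Their log2 differences between PC3-R and DU145-R were 0.09 for HSPG2 (95% interval -0.07 to 0.25, edgeR, adjusted p = 0.333), 0.15 for SPARC (-1.33 to 1.64, adjusted p = 0.866) and -0.13 for THBS1 (-0.30 to 0.03, adjusted p = 0.141). The SPARC interval is wide and includes differences of either sign, with 6, 109 and 95 counts in the DU145-R libraries and 70, 84 and 83 in PC3-R. THBS1 passed without DU145-R library 3 (-0.20, adjusted p = 0.0447). These comparisons share libraries with those of resistance and are not independent of them.

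**Figure D3:**
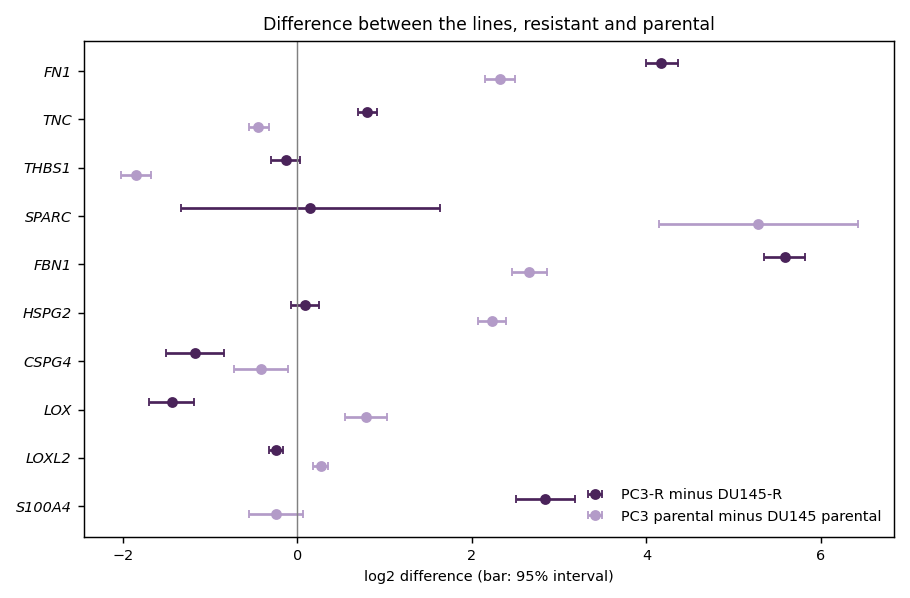
Log2 difference between the lines for each gene, PC3-R minus DU145-R (dark) and PC3 parental minus DU145 parental (light), with 95% intervals. HSPG2, SPARC and THBS1 lie away from 0 between the parental lines and have intervals that include 0 between the resistant lines, while FN1, FBN1 and S100A4 lie further right between the resistant lines.

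The order of the groups by mean CPM differed between genes. PC3 parental cells were highest for FN1, SPARC, HSPG2 and LOX, PC3-R for FBN1, TNC and S100A4, DU145-R for LOXL2, and DU145 parental cells for CSPG4 and THBS1. DU145-R was lowest for FN1, FBN1 and S100A4, and SPARC and HSPG2 were lowest in both resistant lines. Of the neighbouring groups in these orders, the libraries overlapped between PC3-R and DU145-R for SPARC and HSPG2 and in no other case. For THBS1 these 2 groups were barely apart, at 43.6757 CPM in the lowest DU145-R library and 43.6726 CPM in the highest PC3-R library.

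Between genes, on the deposited FPKM, the 10 genes together had 113 ± 6.38 FPKM in DU145-R and 143 ± 3.55 in DU145 parental cells, and 251 ± 15.9 in PC3-R and 314 ± 20.5 in PC3 parental cells (SD, n = 3 each). As a share of all counts, which does not divide by gene length, they took 0.0859% ± 0.00299 in DU145-R and 0.124% ± 0.00114 in DU145 parental cells, and 0.188% ± 0.00728 in PC3-R and 0.402% ± 0.0361 in PC3 parental cells. The mean sum was lower in each resistant line on both scales, and was not tested. The genes that supplied most of these sums differed between the groups. In DU145-R, LOXL2 (44.3 FPKM) and TNC (40.5 FPKM) supplied 39.3% and 35.9% of the sum, against 12.8% and 18.8% in DU145 parental cells, whose largest share was S100A4 with 30.7%. In PC3-R, S100A4 (91.7 FPKM) and TNC (67.5 FPKM) supplied 36.6% and 26.9%, against 11.5% and 6.11% in PC3 parental cells. HSPG2 and FN1 supplied 2.07% and 12.6% in PC3-R (5.20 and 31.6 FPKM), against 33.1% and 26.1% in PC3 parental cells (104 and 82.0 FPKM). SPARC supplied 0.0990% in PC3-R and 10.9% in PC3 parental cells. LOX, CSPG4 and THBS1 were each at most 6.38 FPKM on average in any group.

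**Figure D4:**
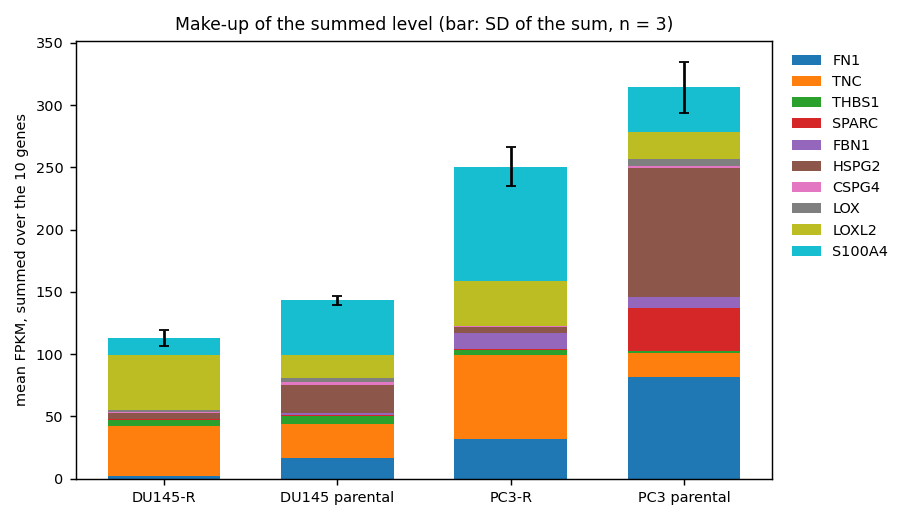
Mean deposited FPKM of the 10 genes stacked within each group, with the SD of the sum over 3 libraries. TNC and LOXL2 make up most of the DU145-R bar, S100A4 and TNC most of the PC3-R bar, and HSPG2 and FN1 most of the PC3 parental bar.

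The genes around these 10 in the same pathways did not all move with them. Over all genes tested, 18.9% rose and 20.7% fell in DU145-R, and 22.4% rose and 21.6% fell in PC3-R. These shares are the background for the counts of every list that follows. Of 37 other matrix glycoproteins tested, 13 rose and 12 fell in DU145-R (median log2 change 0.07), and 7 rose and 15 fell in PC3-R (median -0.51, beside 0.00 over all genes). Among called genes with a mean of at least 5 CPM in either group, the rule for all genes named from these lists, the largest changes in DU145-R were rises. PXDN, a peroxidase that crosslinks collagen IV, averaged 83.7 ± 2.27 CPM in DU145-R and 0.556 ± 0.427 CPM in DU145 parental cells (log2 change 7.25 ± 0.26, edgeR, adjusted p = 1.22e-08). LTBP1, a latent TGF-beta binding protein, had a log2 change of 4.39 ± 0.10 and the matrilin gene MATN3 of 3.23 ± 0.26 (edgeR, adjusted p = 5.05e-14 and 5.83e-08). In PC3-R the largest changes by the same rule were falls, in VWA1 (-3.15 ± 0.17), a perlecan-binding protein, in LTBP2 (-2.92 ± 0.11) and in EFEMP2 (-2.83 ± 0.22), which assembles elastic fibres (edgeR, adjusted p = 4.36e-10, 1.14e-11 and 2.58e-08). LTBP2 rose in DU145-R (2.9), and PXDN and LTBP1 fell in PC3-R (-1.14 and -0.46, edgeR, adjusted p = 1.28e-11, 0.000297 and 3.29e-05). MATN3 also rose in PC3-R (2.2) and EFEMP2 also fell in DU145-R (-0.84, edgeR, adjusted p = 1.52e-06 and 0.00522). VWA1 did not pass in DU145-R (-0.25, edgeR, adjusted p = 0.218).

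Of 24 other proteoglycans tested, 3 rose and 5 fell in DU145-R (median log2 change -0.47), and 8 rose and 7 fell in PC3-R (median -0.07). TGFBR3, the betaglycan gene, averaged 12.3 CPM in DU145-R and 46.1 CPM in DU145 parental cells, and 36.6 CPM in PC3-R and 13.4 CPM in PC3 parental cells. Its log2 change was thus -1.91 ± 0.08 in DU145-R and 1.45 ± 0.08 in PC3-R (edgeR, adjusted p = 3.44e-11 and 5.37e-10). In DU145-R the glypican gene GPC1 fell by 1.39 ± 0.05 on the log2 scale and the syndecan gene SDC1 changed by 1.26 ± 0.04 (edgeR, adjusted p = 4.91e-12 and 2.3e-12). In PC3-R the testican gene SPOCK1 fell by 2.87 ± 0.32 and SRGN, the serglycin of secretory granules, changed by 2.09 ± 0.13 (edgeR, adjusted p = 4.25e-06 and 1.29e-07). SDC1 also rose in PC3-R (0.85) and GPC1 also fell there (-0.21, edgeR, adjusted p = 1.31e-10 and 0.00231). SPOCK1 and SRGN did not pass in DU145-R (0.85 and -0.47, edgeR, adjusted p = 0.16 and 0.283).

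Of 17 other crosslinking and collagen-modifying enzymes, 2 rose and 9 fell in DU145-R (median log2 change -0.51), and 4 rose and 8 fell in PC3-R (median -0.14). SERPINH1, the collagen chaperone HSP47, averaged 79.8 ± 5.71 CPM in DU145-R and 184 ± 8.82 CPM in DU145 parental cells, and 6.43 ± 1.23 CPM in PC3-R and 59.1 ± 2.38 CPM in PC3 parental cells. Its log2 change was -1.20 ± 0.09 in DU145-R and -3.20 ± 0.11 in PC3-R (edgeR, adjusted p = 7.12e-08 and 7.03e-12). TGM2, the transglutaminase that crosslinks fibronectin among other proteins, went the other way in DU145-R, with 1114.8 CPM against 98.8 CPM in DU145 parental cells (3.50 ± 0.05, edgeR, adjusted p = 6.5e-16). The collagen lysyl hydroxylase gene PLOD1 fell there by 1.55 ± 0.04 (edgeR, adjusted p = 1.47e-13). In PC3-R LOXL4, of the lysyl oxidase family, averaged 7.73 CPM, against 117 CPM in PC3 parental cells (-3.92 ± 0.24, edgeR, adjusted p = 9.6e-08), and the prolyl hydroxylase gene P4HA1 fell by 0.76 ± 0.06 (edgeR, adjusted p = 1.28e-08). P4HA1 and LOXL4 also fell in DU145-R (-0.99 and -0.85, edgeR, adjusted p = 1.1e-09 and 0.0214). TGM2 and PLOD1 changed by -0.22 and 0.24 in PC3-R (edgeR, adjusted p = 0.00151 and 7.97e-05).

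Of 9 receptors of the 10 genes tested, 3 rose and 3 fell in DU145-R, and 2 rose and 4 fell in PC3-R (median log2 change 0.05 in DU145-R and -0.09 in PC3-R). ITGB3, the beta chain of the vitronectin receptor, averaged 1.58 CPM in DU145-R and 12.7 CPM in DU145 parental cells (log2 change -3.00 ± 0.28), and 2.49 CPM in PC3-R and 5.64 CPM in PC3 parental cells (-1.18 ± 0.26, edgeR, adjusted p = 3e-07 and 0.00154). LRP1, an endocytic receptor that takes up thrombospondin-1, fell by 0.88 ± 0.07 in DU145-R, and CD47 by 0.66 ± 0.05 (edgeR, adjusted p = 1.04e-07 and 1.85e-08). In PC3-R the integrin genes ITGB5 and ITGAV fell by 1.69 ± 0.08 and 1.26 ± 0.06 (edgeR, adjusted p = 6.84e-11 and 1.07e-10). LRP1 also fell in PC3-R (-0.60, edgeR, adjusted p = 3.79e-06), while CD47 did not pass there (-0.02, adjusted p = 0.743). ITGB5 rose in DU145-R (0.45, edgeR, adjusted p = 0.000142), and ITGAV did not pass there (0.05, adjusted p = 0.575). ITGA5 and ITGB1, which encode the classical fibronectin receptor and are named here after their values were seen, had log2 changes of 0.34 and 0.40 in DU145-R and of 0.69 and 0.13 in PC3-R, with FN1 lower in both (edgeR, adjusted p at most 0.000771).

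Of 12 other S100 genes tested, 5 rose and 1 fell in DU145-R (median log2 change 0.23), and 5 rose and 2 fell in PC3-R (median -0.09). S100A2 moved as S100A4 did: it averaged 14.9 CPM in DU145-R and 38.3 CPM in DU145 parental cells (-1.36 ± 0.09), and 69.8 CPM in PC3-R and 12.5 CPM in PC3 parental cells (2.48 ± 0.09, edgeR, adjusted p = 5.03e-09 and 6.99e-12). S100A11 and S100A13 rose in DU145-R, by 0.48 ± 0.04 and 0.42 ± 0.10, and S100P fell by 2.84 ± 0.41 in PC3-R (edgeR, adjusted p = 1.34e-07, 0.00434 and 0.000112). S100A11 also rose in PC3-R, by 1.10 (edgeR, adjusted p = 1.09e-11), and S100A13 did not pass there (-0.09, adjusted p = 0.516). S100P averaged 0 CPM in DU145-R and in DU145 parental cells. Of 23 genes of glycosaminoglycan synthesis and sulfation, which make and trim the sugar chains of proteoglycans, 7 rose and 6 fell in DU145-R and 7 rose and 9 fell in PC3-R (median log2 change -0.09 in DU145-R and -0.17 in PC3-R). HPSE, the heparanase that cleaves heparan sulfate, rose in both lines. It averaged 32.6 CPM in DU145-R and 16.3 CPM in DU145 parental cells (1.0 ± 0.18), and 22.7 CPM in PC3-R and 3.88 CPM in PC3 parental cells (2.55 ± 0.20, edgeR, adjusted p = 0.000432 and 5.91e-08). EXTL2 and HS2ST1 fell in DU145-R, by 1.36 ± 0.10 and 0.69 ± 0.07, and CSGALNACT1 and HS6ST2 fell in PC3-R, by 2.36 ± 0.18 and 2.10 ± 0.15 (edgeR, adjusted p at most 5.77e-07). EXTL2 and HS2ST1 rose in PC3-R (0.59 and 0.94, edgeR, adjusted p = 8.81e-05 and 1.28e-08). CSGALNACT1 did not pass in DU145-R (-0.40, edgeR, adjusted p = 0.0717). HS6ST2 averaged 0 CPM in DU145-R and in DU145 parental cells.

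**Figure D5:**
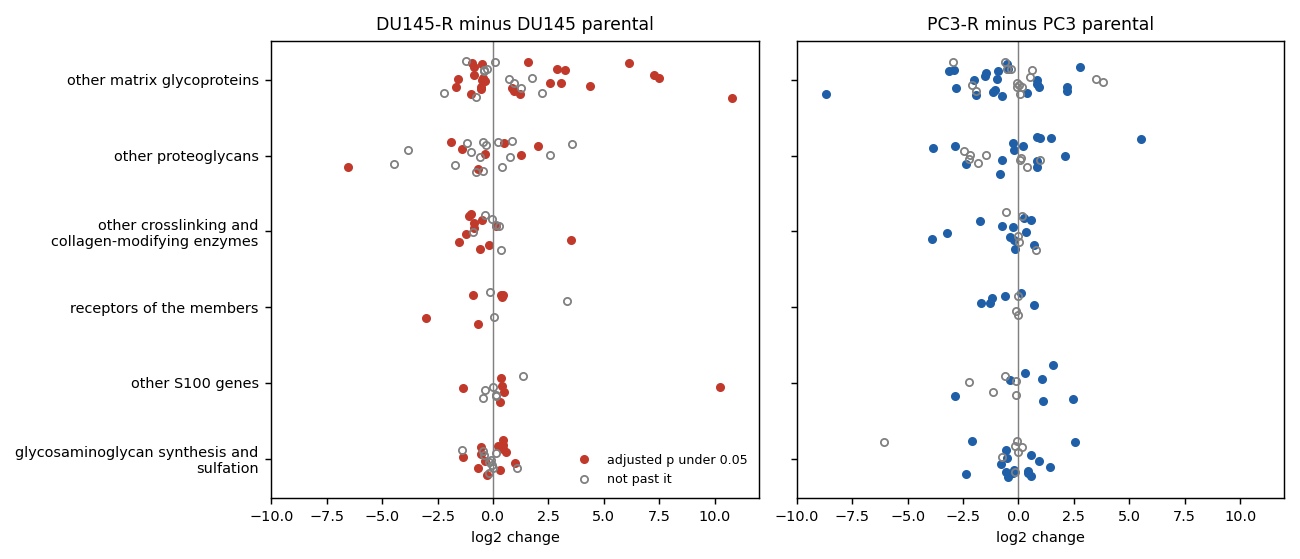
Log2 change of each gene tested in 6 lists of related genes, in DU145-R against DU145 parental cells (left) and in PC3-R against PC3 parental cells (right), with 1 point per gene and filled points for adjusted p under 0.05. Filled points lie on both sides of 0 in every list and in both lines. Among crosslinking and collagen-modifying enzymes, 9 of 17 were lower in DU145-R (20.7% of all genes tested). Among glycoproteins, 15 of 37 were lower in PC3-R (21.6% of all genes tested).

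In a wider view, 257 genes annotated by Gene Ontology to the collagen-containing extracellular matrix, other than the 10, were tested. Of these, 79 rose and 61 fell in DU145-R (median log2 change 0.00), where 18.9% of all genes tested rose and 20.7% fell. In PC3-R, 55 rose and 88 fell (median -0.24), where 22.4% of all genes tested rose and 21.6% fell. Of the 10 genes, 9 carry that annotation and LOX does not.

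The genes most like the 3 members with the highest mean FPKM were sought by Pearson correlation of log2(CPM + 1) over the 12 libraries among 13446 genes. S100A4 was most like ATG4A (r = 0.982) and FBXO8 (0.981), TNC most like NOC2L (0.998) and DPP9 (0.994), and HSPG2 most like TRPT1 (0.994) and AGAP1 (0.992). These are the highest of many values over libraries that fall into 4 groups, and are given as likeness of pattern only.

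Fibroblasts are a usual source of this gene set, so their markers were read in the same libraries. The summed level of 10 fibroblast and smooth muscle markers was 6.93 to 13.2 CPM in DU145-R and 25.6 to 44.6 CPM in DU145 parental cells, and 15.3 to 22.7 CPM in PC3-R and 127 to 138 CPM in PC3 parental cells. Of 9 tested, 3 fell and none rose in each line, where 20.7% of all genes tested fell in DU145-R and 21.6% in PC3-R. The sum was lower in both resistant lines, as were FN1, SPARC, HSPG2, CSPG4 and LOX. TNC and LOXL2 were higher in both, and THBS1, FBN1 and S100A4 fell in DU145-R and rose in PC3-R. COL1A1 averaged 11.5 CPM in PC3-R and made up most of the sum in PC3 parental cells (103 CPM). PDGFRA averaged 1.81 CPM in PC3-R and 11.8 CPM in PC3 parental cells, and COL3A1 0.870 CPM in PC3-R and 8.27 CPM in PC3 parental cells. COL1A2 averaged 2.10 CPM in DU145-R and 16.1 CPM in DU145 parental cells. LUM, ACTA2 and DCN averaged at most 0.274, 1.13 and 1.76 CPM in any group. MYH11 averaged 1.25 CPM in DU145-R and 1.16 CPM in DU145 parental cells, and 1.35 CPM in PC3-R and 1.43 CPM in PC3 parental cells. FAP averaged 0.176 CPM in DU145-R and 0.0359 CPM in DU145 parental cells. The 5 endothelial markers summed to 0.422 to 0.986 CPM in DU145-R and 0.246 to 0.766 CPM in DU145 parental cells, and to 53.9 to 77.3 CPM in PC3-R and 177 to 233 CPM in PC3 parental cells. KDR averaged 40.8 CPM in PC3-R and 178 CPM in PC3 parental cells, PECAM1 averaged 27.3 CPM in PC3-R and 18.3 CPM in PC3 parental cells, and CDH5, TEK and VWF averaged at most 0.410 CPM in any group. The 5 leukocyte markers summed to 19.8 to 38.7 CPM in DU145-R and 16 to 19.5 CPM in DU145 parental cells, and to 75.1 to 86.9 CPM in PC3-R and 44.9 to 59.9 CPM in PC3 parental cells, mostly CD68, with PTPRC at most 0.152 CPM. The 5 carcinoma epithelium markers summed to 1530.4 to 1569 CPM in DU145-R and 896 to 934 CPM in DU145 parental cells, and to 551 to 585 CPM in PC3-R and 1031 to 1044 CPM in PC3 parental cells. The part of these markers in the changes of the 10 genes was not tested.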

How the data were processed

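RNA of 12 libraries was sequenced, 3 in each of 4 groups taken from the sample labels. Libraries were paired-end, from oligo(dT)-selected RNA with dUTP in the second strand, per the labels' protocols. Tools named in the submitters' processing notes are HISAT2 2.0.4, StringTie 1.3.4d, cutadapt 1.9, edgeR and DESeq2. Which program counted reads, and with which strand setting, is not given in the sources used here, so reads of a gene and of one overlapping it on either strand may be mixed. The notes name hg18, but 37345 of 37385 genes shared with GENCODE 29 overlap it on GRCh38, which is the build of the coordinates given.

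For each library the authors deposited 1 table of 38611 genes with counts and FPKM. The deposited counts are not normalized, and the deposited FPKM are scaled to gene length and library total, with 71 genes lacking a value. At mean counts of 5 to 10 the variance between libraries averaged 7.63 to 8.43 times the mean, more than single counts drawn independently would give, and the source of this spread was not tested.

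Counts were filtered with filterByExpr, which left 24128 genes, scaled by TMM and fitted with 1 mean per group over 12 libraries (8 residual degrees of freedom, robust) in edgeR 4.0.16 under R 4.3.3. Contrasts were tested with the two-sided quasi-likelihood F test, adjusted by Benjamini-Hochberg over all genes tested, and a gene was called at an adjusted p under 0.05. SE is the size of the log2 change divided by the square root of F. Alternatives were RLE factors, DESeq2 1.42.0, other filters, no mitochondrial genes, a replicate block, each line alone, limma 3.58.1 on log2(FPKM + 1) and log2(FPKM + 0.1), and leaving out each library. The fit was tested on simulated counts for DU145-R against DU145 parental cells. It recovered 74% of 100 genes changed 2-fold and 81% of 100 changed 4-fold, and called 0.0175% of unchanged genes. Only these genes were changed, in DU145-R alone, and none was taken from the lowest counts. All other genes had the same mean in the 4 groups. In the data 39.6% of genes were called in DU145-R, so these rates cannot be carried over to it.

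The 10 genes and the lists were chosen with earlier results of these data known. From each list, per line, the text names the up to 3 genes with the largest log2 change among those called with a mean of at least 5 CPM in either group, and any others are marked. The comparison of PC3-R with DU145-R and the sum of S100A3 and S100A4 were added after the data were seen.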

Additional observations from a re-analysis of the deposited data

Results flagged for a closer look

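Each of the 10 genes was set apart because its change from parental line to resistant subline differed between the lines by a direct test. The difference is PC3 resistance change minus DU145 resistance change on the log2 scale, with SE. It was tested by edgeR's quasi-likelihood test with Benjamini-Hochberg adjustment over all genes, 42.1% of which passed. With only genes of at least 5 CPM in 3 libraries in the fit, 66.9% passed. For the genes whose change had opposite signs in the lines, this difference was 3.08 ± 0.21 for S100A4 (adjusted p = 4.5e-08), 2.93 ± 0.13 for FBN1 (adjusted p = 2.9e-10) and 1.72 ± 0.11 for THBS1 (adjusted p = 3.24e-09), each lower in DU145-R and higher in PC3-R than in its parental line. Among genes lower in both resistant lines, it was 1.85 ± 0.11 for FN1 (adjusted p = 1.06e-08), which fell further in DU145-R. It was -5.12 ± 0.81 for SPARC (adjusted p = 0.000777), -2.23 ± 0.16 for LOX (adjusted p = 1.78e-08), -2.14 ± 0.10 for HSPG2 (adjusted p = 1.65e-09) and -0.75 ± 0.21 for CSPG4 (adjusted p = 0.00928), which fell further in PC3-R. Among genes higher in both, it was 1.24 ± 0.07 for TNC (adjusted p = 1.69e-09), which rose further in PC3-R, and -0.51 ± 0.06 for LOXL2 (adjusted p = 1.83e-06), which rose further in DU145-R. In every case the 3 resistant libraries lay on the stated side of the 3 parental libraries of the same line. Line and selection dose cannot be told apart in these differences.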

How the results depend on the processing

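Over the alternatives tried, 21 for each resistance comparison and the same without the fit of each line alone for the other comparisons, the direction and call of the 10 genes held except as follows and for the libraries named beside SPARC, CSPG4, S100A4 and THBS1 in the comparisons. The difference between the lines for CSPG4 reversed to 0.01 with limma on log2(FPKM + 1) (adjusted p = 0.97) and was -0.48 on log2(FPKM + 0.1) (adjusted p = 0.065). CSPG4 averaged 0.197 to 2.00 FPKM, and the cause was not tested. The SPARC change in DU145-R did not pass with the line fitted alone (-1.92, adjusted p = 0.154) or without the first or second DU145 parental library. THBS1 passed between the resistant lines with at least 5 CPM in 3 libraries (-0.20, adjusted p = 0.0251) and with limma on log2(FPKM + 1) and log2(FPKM + 0.1) (-0.16 and -0.19, adjusted p = 0.0289 and 0.0401), and the cause was not tested.

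Leaving out each library gave 8675 to 9570 genes and 9 to 10 of the 10 members changed in DU145-R, 9737 to 10633 and 10 in PC3-R, 9636 to 9875 and 10 for the difference, 13760 to 14671 and 8 to 10 between parental lines, and 13577 to 14459 and 7 to 8 between resistant lines. Deviations of libraries of the same number had correlations of -0.035, 0.017 and -0.006 in DU145 and -0.074, 0.102 and -0.122 in PC3. For libraries of different number they ran from -0.031 to 0.038 in DU145 and from -0.097 to 0.176 in PC3. No same-number value was above these ranges, but 3 libraries per group are too few to exclude a pairing. With the replicate block, 9047 genes changed in DU145-R, 10183 in PC3-R, 9685 for the difference, 11533 between parental and 11392 between resistant lines. Of the 10 members, the block left 9, 10, 10, 8 and 7 called, without SPARC in DU145-R (-2.00, adjusted p = 0.0931) and CSPG4 between parental lines (-0.41, adjusted p = 0.2). The SPARC difference between the resistant lines, which did not pass, ran from -0.42 to 0.62 as each library was left out. The share of all genes called in DU145-R and in PC3-R was 23.5% and 26.4% with no filter on low counts, and 64.2% and 69.3% with at least 5 CPM in 3 libraries.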
